A study of Mus musculus with 108 samples.

Results

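Imprinted genes are genes whose expression depends on which parent a chromosome came from, and 34 of them were followed here in single cells of cultured mouse germline stem cells. They were taken by symbol from a list of well-known mouse imprinted genes, and 34 of the 34 had a row among the 26218 genes of the table. By the allele they are known to use in somatic or placental tissue, 22 are paternally expressed, 9 are maternally expressed and 3 (Grb10, Gnas and Ube3a) change allele with tissue or promoter. The table gives 1 value per gene and cell, summed over both alleles, so the parental origin of the RNA was not measured and the classes below are known classes, not results.

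Imprints are DNA methylation marks, laid down differently in egg and sperm, that are read in the next generation as expression from 1 parental allele. In the male germ line the inherited marks are erased in primordial germ cells and the paternal pattern is then set on both chromosomes before birth, so a spermatogonial stem cell carries a sperm-type pattern on each allele. Under that pattern the promoters of genes such as Mest, Peg3 and Snrpn are free of methylation, whereas the control regions of the Igf2-H19, Dlk1-Meg3, Rasgrf1 and Zdbf2 domains carry it.

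The cells were of 2 types. Spermatogonial stem cells kept in culture are called germline stem cells (GSCs). Cells of the same kind obtained from pluripotent stem cells, by way of testes rebuilt in culture, are called germline stem cell-like cells (GSCLCs). Each profile was 1 cell, read at the 3′ ends of polyadenylated RNA by SC3-seq, and the titles gave 4 culture lines: GSC1 (30 cells), GSC2 (24), GSCLC1 (30) and GSCLC4 (24). All 4 lines were of the background 129/SvJcl x C57BL/6 and carried the AcrAct_EGFP reporter. The testes behind GSC2 were independent ones at postnatal day 7, and GSCLC4 grew out of reconstituted testes held at 34 °C for 3 weeks, while the labels say nothing of how GSC1 and GSCLC1 were derived. All lines grew in a serum-poor medium with 1% FBS, GDNF at 10 ng/ml, bFGF at 10 ng/ml, LIF and EGF (20 ng, as labelled). The replicate in every test was the line, not the cell, 2 lines against 2. The p-values rest on the spread between these 4 lines, with the variance of each gene moderated toward a trend over all tested genes. They cover no lines beyond these.

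Estimated depth was 2.00 M to 6.04 M reads per cell (median 3.45 M), and the line medians of detected genes ran from 8607 to 9866, highest in GSCLC4. All 10 germ cell markers averaged at least 5 RPM (reads scaled to the total over all genes of the cell) in each line, and the median of their summed level lay between 5386 and 6299 RPM. Fibroblast and feeder markers summed to a median of 751 RPM in GSC1 and 728 in GSC2, against 279 in GSCLC1 and 553 in GSCLC4. Of these 15 markers 14, 8, 7 and 8 averaged at least 5 RPM in that order, with Vim, Fn1 and Lgals1 among the highest, and 1, 3, 2 and 2 were at 0. Of 12 Sertoli cell markers 1, 1, 3 and 4 averaged at least 5 RPM and 5, 6, 5 and 4 were at 0, Amh and Gata1 in every line. Their sum had medians of 11, 1, 19 and 88 RPM. Wt1, Rhox5, Aard and Gata4 were highest in GSCLC4, at 25.8, 37.2, 11.9 and 2.78 RPM. Clu and Sox9 were highest in GSC1, at 20.1 and 4.86 RPM, and Inhba in GSC2, at 13.6 RPM. A single GSC1 cell was unlike the rest of its line. It had 5748 detected genes against a line median of 8791, and 64860 RPM of fibroblast markers. The summed fibroblast markers averaged 3272 RPM over GSC1 cells with it and 1148 RPM without it. The count of 14 such markers in GSC1 includes this cell and was not taken without it. Where it held the highest GSC1 value of an imprinted gene named below, the mean is given with and without it.

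Many of the 34 genes were silent or close to it. The highest line mean was at least 20 RPM for 17 genes, under 5 RPM for 12 and under 1 RPM for 8. The 8 were the paternally expressed Snrpn, Airn, Magel2, Peg10, Peg12 and Dlk1 and the maternally expressed Rian and Mirg. Dlk1, a membrane protein of the Notch ligand family, reached no more than 0.486 RPM in any line. Its maternally expressed neighbours on chromosome 12, the noncoding RNAs Rian and Mirg, were at or below 0.412 RPM, and Meg3 was between 0.499 and 4.78 RPM. These 4 genes were thus low in both cell types, on the paternal and on the maternal side, while Begain and Wars, further genes listed for the domain, reached 9.31 and 56.8 RPM in GSCLC1. Peg10, a gene of retrotransposon origin needed in the placenta, had 3 reads in GSC1, 1 in GSCLC4 and 0 in the other two lines.

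Snrpn needs separate reading. It encodes a splicing protein and shares its transcript with Snurf, and none of its values above 0 came to a whole read, against at least 85.6% of the values of every cell. Its mean was between 0.00406 and 0.00990 RPM. The row of Snurf, looked up after these values were seen, held 2.64 RPM in GSC1 and 0.966 in GSC2, against 5.44 in GSCLC1 and 5.34 in GSCLC4, more than the Snrpn row in each line. The counting of reads shared between genes is not given in these sources. The same doubt applies to Peg12, one of the 8 genes under 1 RPM, with 93.8% of its values above 0, and to Kcnq1ot1, Cdkn1c and Plagl1, with 20.6%, 26.2% and 20.3%, that were not whole reads within a tolerance of 0.05 read.

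The comparison of GSCLC with GSC lines asks how far stem cells grown out of pluripotent cells resemble those of the testis. A gene was tested where 2 or more lines averaged at least 5 RPM, which kept 21 of the 34 imprinted genes and 10526 genes in all. With limma on log2(line mean RPM + 1) and Benjamini-Hochberg adjustment over the 10526 genes, 1 imprinted gene, Mest, was higher in GSCLC lines at an adjusted p under 0.05, against 0.0570% of all tested genes. None was lower, against 0.0190% of all tested genes. At an unadjusted p under 0.05, 5 imprinted genes were higher and 1 was lower, and over all tested genes 529 were higher and 400 lower.

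The order of the lines gives a fuller picture. Both GSCLC line means lay above both GSC line means for 8 of the 21 tested imprinted genes, a share of 38.1%, and the same held for 22% of all tested genes. Both lay below for 2 (Igf2r and Gnas), and the same held for 17.3% of all tested genes. Of the 13 tested paternally expressed genes 7 lay above (Mest, Slc38a4, Peg3, Impact, Kcnq1ot1, Ndn and Igf2) and 0 below. Of the 5 tested maternally expressed genes 0 lay above and 1 (Igf2r) below. The median log2 difference, GSCLC minus GSC, was 0.62 over the 13 paternally expressed genes, -0.30 over the 5 maternally expressed genes and 0.04 over all 10526 genes. Over the 18 alternatives the paternal median stayed positive, whereas the maternal median ran from -0.41 to 0.46 and was positive in 7. These counts cover only the genes that passed the filter, some genes share a domain, and the classes were not tested against each other. Sums were also taken over all members of a class, tested or not. The paternally expressed genes came to 319.3 RPM in GSC1 and 285.0 in GSC2, against 512.7 in GSCLC1 and 642.8 in GSCLC4. Of these sums Mest made up 27.2, 43.7, 143.1 and 126.6 RPM in that order, and Slc38a4 5.62, 15.2, 53.6 and 103.6 RPM. These 2 genes carried much of the difference, and 1 GSCLC1 cell held 1975.1 RPM of Mest, so the sums do not show a rise shared by the whole class. The maternally expressed genes came to 116.7, 78.3, 82.5 and 91.3 RPM in the same order, so that the lines of the types overlapped.

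**Figure D1:**
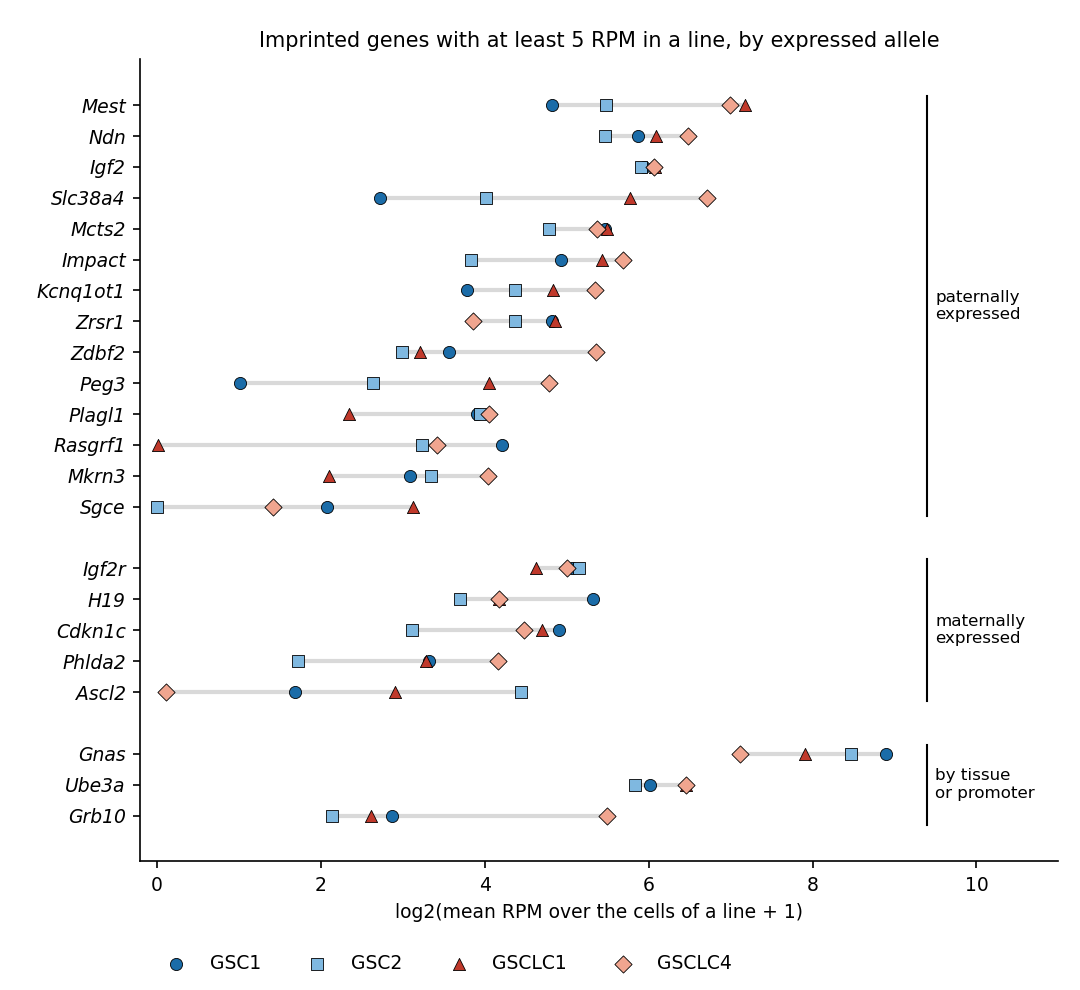
Mean level of the 22 imprinted genes with at least 5 RPM in at least 1 line, as log2(mean RPM over the cells of a line + 1), 1 symbol per line, with genes grouped by the allele they are known to use and sorted by level. Mest, Slc38a4 and Peg3 show both GSCLC lines to the right of both GSC lines by the widest gaps of the paternally expressed genes, while Gnas shows the opposite order.

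Mest encodes a hydrolase-like protein of the endoplasmic reticulum, is active in mesoderm and is paternally expressed. It averaged 27.2 RPM in GSC1 and 43.7 in GSC2, against 143.1 in GSCLC1 and 126.6 in GSCLC4. The GSCLC lines were high and the groups did not overlap, with 134.9 ± 11.7 RPM against 35.5 ± 11.6 (mean ± SD, n = 2 lines each). The log2 difference was 1.93 with a standard error of 0.31 (limma adjusted p = 0.0475). Single cells differed widely: the median cell held 0.599 RPM in GSC1 and 9.19 in GSC2, against 55.4 in GSCLC1 and 83.4 in GSCLC4. One GSCLC1 cell with 1975.1 RPM made up 46.0% of the sum of its line. With the highest cell of each gene left out of each line, an alternative chosen after seeing the data, the log2 difference was 1.78 and the limma adjusted p was 0.0993, so the call was lost while the direction held. Over the 18 alternatives tried, Mest passed in 5 and missed the threshold in 13, with limma adjusted p-values from 0.0197 to 0.737. The call also ended when GSC1 (0.231), GSCLC1 (0.125) or GSCLC4 (0.180) was left out, and held without GSC2 (0.0199), each a limma adjusted p. The fibroblast and feeder markers given above had their higher medians in the GSC lines, where Mest was lower, and their part in the result was not tested.

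Slc38a4, a transporter of neutral amino acids whose imprint in extraembryonic tissue depends on a histone mark of the egg, averaged 5.62 RPM in GSC1 and 15.2 in GSC2, against 53.6 in GSCLC1 and 103.6 in GSCLC4. The groups did not overlap. Its log2 difference, 2.87 with a standard error of 0.51, was larger than that of Mest and missed the threshold (limma adjusted p = 0.0772, with a range of 5.53e-05 to 0.713 over the alternatives). One GSC2 cell with 244.0 RPM made up 66.8% of the sum of GSC2. Without the highest cell of each gene in each line, the log2 difference was 3.77 and the limma adjusted p was 0.0138. It also passed without GSC2 (log2 difference 3.51, limma adjusted p = 0.0206). Slc38a4 passed and Mest did not both without the highest cells and with the mean of log values over cells, and both passed without GSC2. Neither gene changed direction in any of the 18 alternatives.

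Peg3, a zinc finger protein and the name gene of its domain on chromosome 7, averaged 1.02 RPM in GSC1 and 5.21 in GSC2, against 15.6 in GSCLC1 and 26.5 in GSCLC4. The log2 difference was 2.59 with a standard error of 0.73 and did not pass (limma adjusted p = 0.382). Usp29, which encodes a ubiquitin peptidase and starts next to Peg3 on the opposite strand, had at least 5 RPM in 0 GSC cells, 1 GSCLC1 cell and 2 GSCLC4 cells. Zim1, the maternally expressed zinc finger gene of the domain, had at least 5 RPM in 2 GSCLC1 cells and in 0 cells of each other line.

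The 3 genes are paternally expressed, and in somatic cells the Mest and Peg3 promoters are methylated on the maternal allele. A promoter sequence is shown for each because they had the widest separation between the types among the paternally expressed genes. The sequences are RefSeq windows on GRCm38.p6, the assembly of mm10, from 250 bases before to 50 after an annotated start, 5′ to 3′ on the strand of the gene. Capitals mark CpG dinucleotides, the sites of DNA methylation. The Mest window is chr6:30737800-30738099 on the plus strand with 17 CpGs, the Peg3 window chr7:6730370-6730669 on the minus strand with 13, and the Slc38a4 window chr15:97020310-97020609 on the minus strand with 5.
Mest: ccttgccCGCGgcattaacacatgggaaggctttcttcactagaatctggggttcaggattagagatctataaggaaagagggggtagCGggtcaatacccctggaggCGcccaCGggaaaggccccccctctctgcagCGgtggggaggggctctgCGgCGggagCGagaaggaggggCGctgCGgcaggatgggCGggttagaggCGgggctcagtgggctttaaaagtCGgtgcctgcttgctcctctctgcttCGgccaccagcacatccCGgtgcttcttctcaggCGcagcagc
Peg3: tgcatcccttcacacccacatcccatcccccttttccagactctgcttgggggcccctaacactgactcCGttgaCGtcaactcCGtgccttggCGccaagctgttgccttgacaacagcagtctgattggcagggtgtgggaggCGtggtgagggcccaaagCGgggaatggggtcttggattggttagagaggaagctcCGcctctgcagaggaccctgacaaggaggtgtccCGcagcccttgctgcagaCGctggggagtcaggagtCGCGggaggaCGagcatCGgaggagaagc
Slc38a4: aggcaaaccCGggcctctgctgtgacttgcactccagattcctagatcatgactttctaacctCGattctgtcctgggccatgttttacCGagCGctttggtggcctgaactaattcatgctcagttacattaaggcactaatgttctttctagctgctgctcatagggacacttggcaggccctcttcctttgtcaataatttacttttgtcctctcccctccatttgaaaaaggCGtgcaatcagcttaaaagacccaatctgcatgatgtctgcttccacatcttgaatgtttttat
Windows were found for 29 of the 34 genes, 45 windows in all, with a median of 13 CpGs against 7 over all 32851 windows. The letters TGCCGC, the core of the motif of ZFP57, a protein that keeps imprints in the embryo, were searched on both strands. They occurred in 24.4% of the 45 windows and in 11.6% of all windows. There were 2 matches in the Mest window above and 0 in those of Peg3 and Slc38a4. The letters hold a CpG and the 45 windows are richer in CpGs, so the shares are not like for like, and windows of equal CpG count were not compared. The Mest window above and one that overlaps it were both counted. Mest and Slc38a4 have further annotated starts, and 3′-end reads do not show which start was used. The window with the most CpGs was shown for each gene, and on ties the one of lowest coordinate. The Slc38a4 windows hold 5 CpGs each, so the one shown is the furthest downstream. The furthest upstream one is chr15:97055907-97056206. A match describes these letters only.

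**Figure D2:**
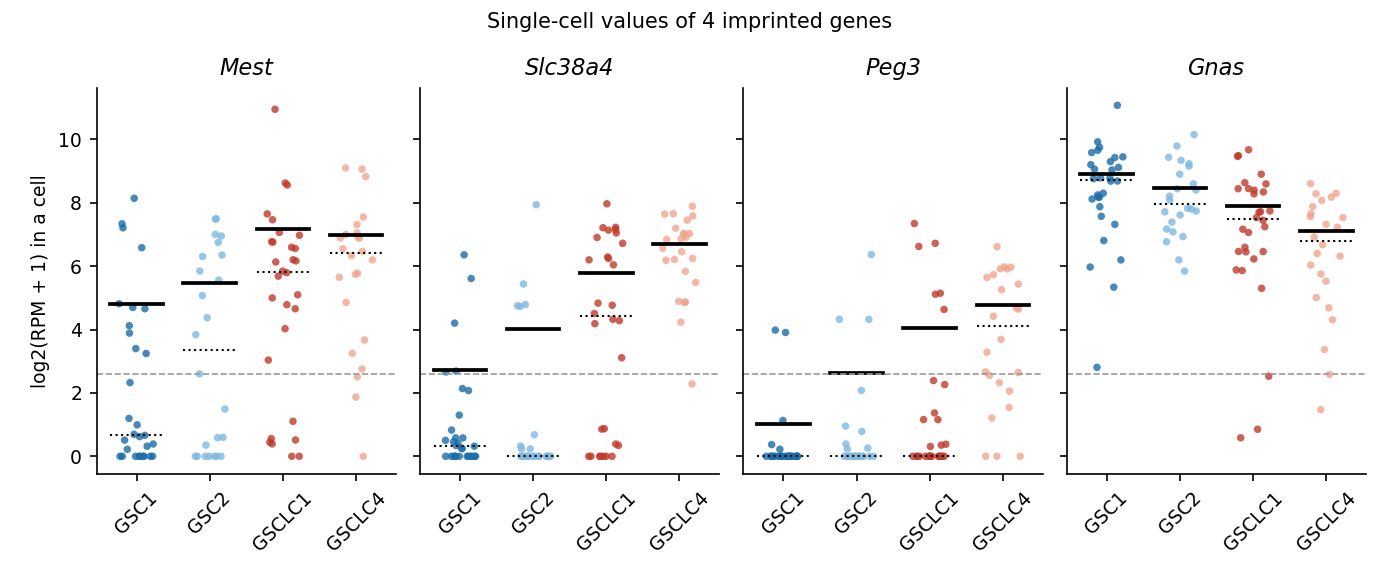
Values of Mest, Slc38a4, Peg3 and Gnas in each cell as log2(RPM + 1), by line. Solid bars mark log2(line mean + 1), dotted bars the median cell and the dashed line 5 RPM. Mest in GSCLC1 includes the cell of 1975.1 RPM, and Slc38a4 reached 5 RPM in 23 of 24 GSCLC4 cells.

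The share of cells with at least 5 RPM moved with the level of these genes. Mest reached 5 RPM in 36.7% of GSC1, 54.2% of GSC2, 76.7% of GSCLC1 and 87.5% of GSCLC4 cells. Slc38a4 did so in 16.7% (95% exact binomial interval 5.64 to 34.7), 20.8% (7.13 to 42.2), 63.3% (43.9 to 80.1) and 95.8% (78.9 to 99.9) in that order. These intervals cover counting error over cells only. Peg3 stood apart in GSCLC4 alone, with 66.7% of cells against 20.0% in GSCLC1, 12.5% in GSC2 and 6.67% in GSC1. Depth was matched by thinning every cell to 1998273 reads, the depth of the shallowest. The shares then were 40.0%, 50.0%, 76.7% and 91.7% for Mest, unchanged for Slc38a4, and 6.67%, 12.5%, 23.3% and 70.8% for Peg3. Cells with all 3 genes at 5 RPM or more numbered 0 of 30 in GSC1, 1 of 24 in GSC2, 3 of 30 in GSCLC1 and 14 of 24 in GSCLC4. Cells with 0 of the 3 numbered 13, 9, 3 and 0. The 3 genes were picked for their separation between the types in these same data, so this order of the lines follows from that choice. In GSCLC4 Mest and Slc38a4 shared 20 cells, where the product of their single shares gave 20.1. Mest and Peg3 shared 15 against 14.0, and Slc38a4 and Peg3 15 against 15.3.

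A further 3 paternally expressed genes with somewhat smaller differences had both GSCLC lines above both GSC lines without passing the threshold. Impact, a regulator of the amino acid sensor kinase GCN2, averaged 29.5 RPM in GSC1 and 13.3 in GSC2, against 42.3 in GSCLC1 and 50.4 in GSCLC4 (log2 difference 1.17, limma adjusted p = 0.495). The GSC1 cell with few genes held its highest GSC1 value, 215.0 RPM, and the GSC1 mean was 23.1 RPM without it. Kcnq1ot1, the noncoding RNA that silences its domain in cis, averaged 12.8, 19.6, 27.5 and 39.8 RPM in the same order (log2 difference 1.01, limma adjusted p = 0.557). Its GSC1 level rested on cells with serial numbers under 129, which averaged 26.4 RPM over 13 cells against 2.50 RPM over the other 17. Ndn, a growth suppressor of the MAGE family, averaged 57.5, 43.4, 67.3 and 88.4 RPM (log2 difference 0.62, limma adjusted p = 0.595). It was present at 5 RPM or more in 100% of GSCLC4 cells, against 50.0% to 66.7% of cells in the other lines. The GSC1 cell with few genes held the highest Ndn value of its line, 289.2 RPM, and the GSC1 mean was 49.5 RPM without it.

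Igf2, the fetal growth factor, had the most even line means of the tested imprinted genes. It averaged 60.4 RPM in GSC1 and 58.9 in GSC2, against 66.6 in GSCLC1 and 65.9 in GSCLC4. The log2 difference was 0.15 with a standard error of 0.28 (limma adjusted p = 0.933), and its sign turned when the median cell was used (-0.20). It reached 5 RPM in 60% to 75% of the cells of each line. H19, the maternally expressed noncoding RNA downstream of Igf2 that uses the same enhancers on the other allele, was detected as well, at 38.9 RPM in GSC1 and 12 in GSC2, against 17.0 in GSCLC1 and 17.0 in GSCLC4. The lines overlapped (log2 difference -0.34, limma adjusted p = 0.919), and the sign turned without GSC1 (0.46). Cells with both genes at 5 RPM or more numbered 10, 7, 8 and 9 in the 4 lines.

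Igf2r, the receptor that clears IGF2 and is maternally expressed, averaged 32.4 RPM in GSC1 and 34.6 in GSC2, against 23.6 in GSCLC1 and 31.1 in GSCLC4. The difference was small against its error (log2 difference -0.30, standard error 0.39, limma adjusted p = 0.889). Airn, the antisense noncoding RNA that silences Igf2r on the paternal allele in somatic cells, had 3 reads in all, in 1 GSC2 cell. The growth-restraining genes of the Kcnq1 domain on chromosome 7 were uneven. Cdkn1c, an inhibitor of cyclin-dependent kinases, averaged 28.9, 7.63, 24.9 and 21.4 RPM in GSC1, GSC2, GSCLC1 and GSCLC4 (log2 difference 0.58, limma adjusted p = 0.837; -0.31 without GSC2). Phlda2, a placental growth regulator, averaged 8.98, 2.31, 8.78 and 16.9 RPM (log2 difference 1.21, limma adjusted p = 0.677). Ascl2, a transcription factor of the trophoblast, averaged 2.21, 20.8, 6.51 and 0.0779 RPM (log2 difference -1.55, limma adjusted p = 0.740). Ascl2 was highest in GSC2, where Cdkn1c and Phlda2 were lowest.

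Gnas, which encodes the stimulatory G protein alpha subunit and several promoter-specific products, had the highest mean RPM of the 34 genes in each line. It averaged 474.4 RPM in GSC1 and 354.0 in GSC2, against 238.5 in GSCLC1 and 138.2 in GSCLC4. Both GSCLC lines were low and the types did not overlap, but the log2 difference of -1.17 (standard error 0.25) missed the threshold (limma adjusted p = 0.175, with a range of 0.0163 to 0.755 over the alternatives). It passed without GSCLC1 (log2 difference -1.56, limma adjusted p = 0.0163). The GSC1 cell with few genes held the highest value, 2154.2 RPM, and the GSC1 mean was 416.4 RPM without it. Gnas reached 5 RPM in 100% of GSC1, 100% of GSC2, 90.0% of GSCLC1 and 91.7% of GSCLC4 cells. The products of its promoters end in shared 3′ exons, so 3′-end reads cannot separate them, and Nespas, antisense to the locus, averaged 2.84 to 4.86 RPM.

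Ube3a, a ubiquitin ligase that is maternally expressed in neurons and uses both alleles elsewhere, averaged 63.8 RPM in GSC1 and 56.0 in GSC2, against 86.8 in GSCLC1 and 87.0 in GSCLC4 (log2 difference 0.53, limma adjusted p = 0.610). Grb10, an adaptor that dampens insulin and growth factor signalling, averaged 6.32, 3.41 and 5.14 RPM in GSC1, GSC2 and GSCLC1 and 44.1 in GSCLC4. Only GSCLC4 was high, and the types overlapped (log2 difference 1.55, limma adjusted p = 0.639; 0.11 without GSCLC4). At least 5 RPM of Grb10 was found in 70.8% of GSCLC4 cells, against 8.33% to 13.3% of cells in each other line. The summed Sertoli cell markers were also highest in GSCLC4, at a median of 88 RPM, although Clu, Sox9 and Inhba were highest in a GSC line. The part of these markers in the Grb10 result was not tested.

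The remaining paternally expressed genes that could be tested overlapped between types. Mcts2 and Zrsr1 are retrogenes, copies made through RNA, that lie inside introns of H13 and Commd1. Mcts2 averaged 43.4 RPM in GSC1 and 26.6 in GSC2, against 44 in GSCLC1 and 40.3 in GSCLC4, and Zrsr1 27.3, 19.6, 28.1 and 13.5 RPM. Plagl1, a zinc finger transcription factor, averaged 14.0, 14.4, 4.07 and 15.6 RPM. Rasgrf1, an exchange factor for Ras whose paternal allele is methylated, averaged 17.6, 8.45, 0.0119 and 9.66 RPM. Its GSCLC1 value came from 1 read in 30 cells, so the low mean of the GSCLC type (log2 difference -2.01, limma adjusted p = 0.600) rested on that line, and it was -0.32 without GSCLC1. Zdbf2, whose upstream control region is also methylated on the paternal allele, averaged 10.8, 6.98, 8.23 and 40.2 RPM and reached 5 RPM in 79.2% of GSCLC4 cells, against 30.0% to 41.7% elsewhere. Without GSCLC4 its log2 difference went from 1.01 to -0.07. Mkrn3, a ring finger protein of the Snrpn domain, averaged 7.49, 9.16, 3.28 and 15.5 RPM. Sgce, which encodes a membrane protein and was not tested, averaged 3.21, 0, 7.70 and 1.67 RPM, and the GSC1 mean was 0.901 RPM without the cell of few genes.

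**Figure D3:**
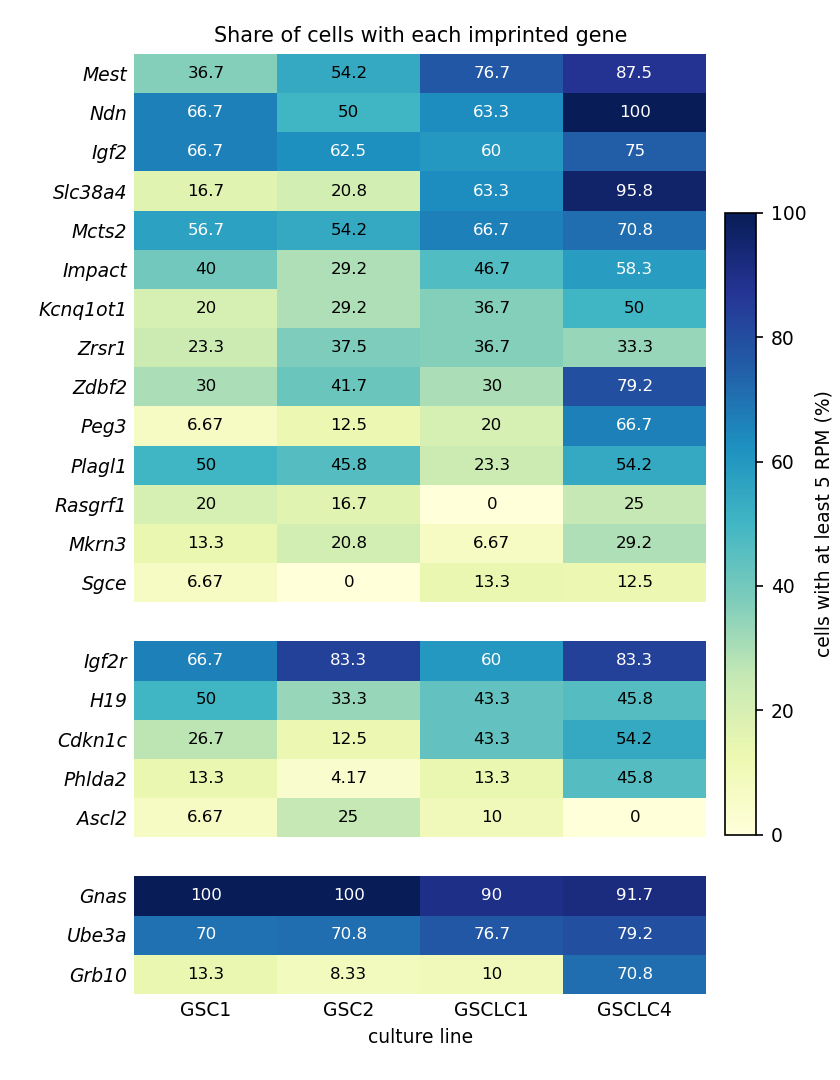
Share of the cells of each line (in percent) with at least 5 RPM of the 22 imprinted genes with a line mean of at least 5 RPM, in the gene order of the plot of line means. GSCLC4 has the highest share for most paternally expressed genes, up to 100% for Ndn, and stands apart for Grb10, Zdbf2, Peg3 and Phlda2. The maternally expressed Cdkn1c and Phlda2 also have their highest share there, at 54.2% and 45.8%. Over all tested genes the median share was highest in GSCLC4 too, at 70.8% against 56.7% to 62.5% in the other lines.

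Lines of 1 type were compared by size alone, since 1 line a group allows no test. Here 2-fold means a difference of at least 1 in log2(line mean RPM + 1), not a ratio of RPM values. Rasgrf1, with 17.6 RPM in GSC1 and 8.45 in GSC2, thus fell just short at -0.98. Among the 21 tested imprinted genes, GSC2 lay at least 2-fold above GSC1 for 3 (Ascl2, Peg3 and Slc38a4), against 7.23% of all tested genes. It lay at least 2-fold below for 4 (Cdkn1c, H19, Phlda2 and Impact), against 7.33% of all tested genes. Of those 4, 3 are maternally expressed, with log2 differences, GSC2 minus GSC1, of -1.79 for Cdkn1c, -1.62 for H19 and -1.59 for Phlda2. Few cells carried them: Phlda2 reached 5 RPM in 1 GSC2 and 4 GSC1 cells, Cdkn1c in 3 and 8, and H19 in 8 and 15. Ascl2, also maternally expressed and of the same domain as Cdkn1c and Phlda2, went the other way (2.76). GSCLC4 lay at least 2-fold above GSCLC1 for 5 genes, against 9.35% of all tested genes: Rasgrf1 (log2 difference 3.40), Grb10 (2.88), Zdbf2 (2.16), Mkrn3 (1.95) and Plagl1 (1.71). It lay at least 2-fold below for 2, Ascl2 (-2.80) and Zrsr1 (-1.0), against 5.23% of all tested genes. GSC1 was itself uneven by serial number. The 13 cells with numbers under 129 averaged 48.1 RPM of Mest, 51.1 of Igf2r and 0.0140 of Grb10, and the 17 cells from 129 on averaged 11.2, 18.2 and 11.1 RPM.

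Counted per cell, the median number of imprinted genes at 5 RPM or more was 8 in GSC1 and 8 in GSC2, against 9 in GSCLC1 and 13 in GSCLC4. The paternally expressed genes gave medians of 4, 4.5, 5 and 8 in that order, and the maternally expressed genes a median of 2 in each line. The number of all tested genes at 5 RPM or more per cell also was highest in GSCLC4, with medians of 5932, 6278, 6034 and 6996. The part that the broader detection in GSCLC4 has in its higher count was not tested. The tested imprinted genes had a median share of 30.0% of cells in GSC1 and 33.3% in GSC2 and of 43.3% in GSCLC1 and 66.7% in GSCLC4, against 56.7%, 62.5%, 56.7% and 70.8% over all tested genes.

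**Figure D4:**
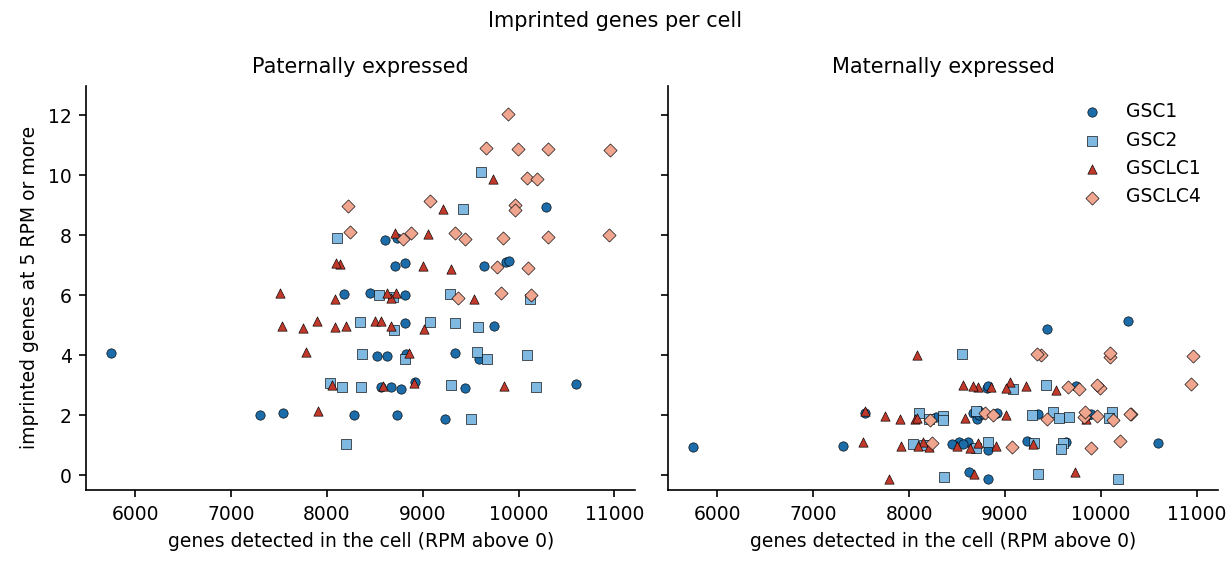
Number of imprinted genes at 5 RPM or more in each cell (vertical axis, points shifted slightly to separate them) against the number of genes detected in that cell (horizontal axis), for the 22 paternally expressed genes on the left and the 9 maternally expressed genes on the right, coloured by line. GSCLC4 cells hold 6 to 12 paternally expressed genes and lie toward the side of many detected genes. The maternally expressed genes number 0 to 5 per cell in GSC1, 0 to 4 in GSC2 and GSCLC1 and 1 to 4 in GSCLC4.

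From cell to cell the imprinted genes varied together about as little as all gene pairs did. Spearman's rho was taken across the cells of 1 line for members found at 5 RPM or more in at least 25% of them, as a description over cells that share a culture and differ in depth. In GSC1 0 of 66 pairs reached 0.5, where 0.520% of all gene pairs did. In GSC2 1 of 91 pairs did (Igf2 with Ube3a, rho = 0.51), where 0.885% of all gene pairs did. In GSCLC1 0 of 91 pairs did, against 0.364% of all pairs, and in GSCLC4 1 of 190 did (Mcts2 with Ndn, rho = 0.56), against 1.02%. Neither pair reached 0.5 in another line: Igf2 with Ube3a lay between -0.08 and 0.16 there, and Mcts2 with Ndn between 0.09 and 0.34. The lowest rho of the 4 lines was that of Igf2r with Impact in GSC2, at -0.57, while this pair lay between -0.15 and 0.04 in the other lines. The median rho over pairs of imprinted genes lay between 0.01 and 0.05, and over all pairs between 0.01 and 0.03. Mest and Slc38a4, both high in GSCLC lines, had a rho of -0.06 in GSCLC1 and 0.00 in GSCLC4, with no common order across cells. Igf2 and H19 had a rho of -0.11 in GSC1 and 0.20 in GSC2, against 0.27 in GSCLC1 and 0.11 in GSCLC4.

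Genes that overlap or neighbour an imprinted gene were read beside it. Copg2, a coat protein gene that overlaps the end of Mest on the opposite strand, averaged 16.2, 10.8, 18.8 and 15.1 RPM in GSC1, GSC2, GSCLC1 and GSCLC4 (log2 difference 0.33, limma adjusted p = 0.916). Its rho with Mest was 0.09 in GSC1 and 0.03 in GSC2, against 0.33 in GSCLC1 and 0.55 in GSCLC4, and whether counting used the strand is not given, so overlapping reads cannot be assigned with certainty. The host genes H13, Commd1 and Blcap had limma adjusted p-values of 0.838, 0.660 and 0.954. Nnat, the imprinted gene inside Blcap, was at no more than 1.43 RPM. Of 51 further genes of imprinted domains 24 were tested and 0 passed in either direction by limma, against 0.0570% higher and 0.0190% lower over all tested genes. At an unadjusted p under 0.05, 1 was higher and 2 were lower, beside 529 and 400 of all 10526 tested genes, and the median log2 difference was 0.04, as over all tested genes. Both GSCLC lines lay above both GSC lines for 5 of the 24, a share of 20.8% against 22% of all tested genes, and below for 3, against 17.3%. Osbpl5, with 7.57, 13.3, 0.324 and 0.349 RPM in GSC1, GSC2, GSCLC1 and GSCLC4, is one of the 2 lower genes and one of these 3. It passed the filter only through the GSC lines, where it was high, so these counts include a gene selected by the filter.

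The enzymes and proteins that write, protect or erase imprints were largely even. Of 25 such genes 19 were tested and 0 passed by limma in either direction, with 2 higher and 0 lower at an unadjusted p under 0.05, beside 529 and 400 of all 10526 tested genes. Dnmt1, the maintenance DNA methyltransferase, averaged 305.4 RPM in GSC1 and 347.6 in GSC2, against 327.0 in GSCLC1 and 321.8 in GSCLC4. Trim28, the corepressor that zinc finger proteins bring to imprinted regions, averaged 159.2, 182.9, 215.6 and 201.4 RPM. Zfp57 was at no more than 0.250 RPM in any line, and Zfp445, another zinc finger protein that protects imprints, averaged 13.5, 7.76, 24.2 and 39.1 RPM (log2 difference 1.5, limma adjusted p = 0.457). Dnmt3l, the cofactor of de novo methylation in the germ line, averaged 0.0251 RPM in GSC1 and 0 in GSC2, against 7.85 in GSCLC1 and 6.06 in GSCLC4 (limma adjusted p = 0.456). It is one of the 2 higher genes and passed the filter only through the GSCLC lines, where it was high. Zfp445 and Dnmt3l were named after their values were seen.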

How the data were processed

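Single-cell libraries of 108 cultured cells were analysed from 1 table. The authors deposited expression signal as RPM per gene and cell. In that table the gene rows of each cell add up to the scaling total, with synthetic spike-ins in addition. Only gene rows were used. The submitters' processing notes name TopHat 1.4.1, Cufflinks 2.2.0, cutadapt 1.3 and build mm10; the handling of multi-mapped reads is not given in these sources. The commonest nonzero value of a cell was taken as 1 read, which gave its depth. By cell, 85.6% to 92.4% of values came out as whole reads (tolerance 0.05 read), too few for a count model.

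Line values were mean RPM over cells, used as log2(mean + 1), a scale on which the changes of low genes are understated. Since 3′-end reads do not scale with transcript length, levels were not divided by it. limma 3.58.1 in R 4.3.3 (trend) was fitted to the 4 lines without pairing. It was also run on simulated data drawn with its own fitted variances, which cannot show whether the model holds for these lines. With 2 lines against 2, an exact permutation test cannot go below p = 0.333, so none was run. The members, classes, lists and tests were chosen with earlier results of these data known. Genes were named where a line mean reached 20 RPM, where they passed the threshold, or where the types did not overlap by at least 1 on the log2 scale, with host and neighbour genes added. Genes of other lists or below these limits that are named were picked after their values were seen. Of the listed domain genes, 3 of 54 (Jade1, Zim2 and Zfp264) had no row of that symbol. The 34 genes were matched to RefSeq GRCm38.p6 by Entrez identifier. Alternatives covered the pseudocount, filter, line summary, scaling, variance model, left-out lines and left-out cells.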

Additional observations from a re-analysis of the deposited data

How the results depend on the processing

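Over 18 alternatives, Mest, the only gene called, lost its call in 13. Of 365 values of single genes, 325 kept their direction and their side of the threshold, nearly all for genes that were not called, 8 newly passed and 19 changed sign. The number of imprinted genes past the threshold, 1 (Mest) in the fit as reported, was 0 with a pseudocount of 0.5, with no filter, with a filter at 1 RPM, with the median cell, with median-ratio scaling, with no variance trend and with either set of GSC1 cells by serial number alone. It was 2 with a pseudocount of 10, with a filter at 20 RPM and with spike-in scaling (Mest and Slc38a4 each time), and with the mean of log values over cells (Gnas and Slc38a4), which moved the median of all genes from 0.04 to 0.19. Leaving out 1 line gave 0 to 2. Where that left 1 line in a type, the lone line was assumed to vary like the others. The cause of these changes was not tested.

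Signs turned for Mkrn3 with a pseudocount of 10 (0.01), the mean of logs (0.10), the median cell (0.43) and GSC1 cells from 129 on (0.30), for Zrsr1 with the mean of logs (0.06) and GSC1 cells under 129 (0.15), for H19 with the median cell (0.19) and GSC1 cells under 129 (0.02), for Igf2 with the median cell (-0.20) and GSC1 cells under 129 (-0.01), for Plagl1 with the median cell (0.15) and for Igf2r with GSC1 cells from 129 on (0.10). With a line left out, the log2 difference ranged from -1.12 to 0.83 for Mkrn3, -0.73 to 0.27 for Zrsr1, -1.15 to 0.46 for H19, -1.58 to 0.13 for Plagl1, -0.31 to 1.48 for Cdkn1c, -0.04 to 0.64 for Mcts2 and -0.07 to 2.09 for Zdbf2. The median over paternally expressed genes ran from 0.36 to 1.17 over all alternatives and that over maternally expressed genes from -0.41 to 0.46, so the sign of the second was not stable.

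For the 2-fold counts within a type, GSC2 above GSC1 went from 3 to 1 (pseudocount 10) and 0 (without the highest cell), below from 4 to 2 (pseudocount 10) and 1 (mean of logs). GSCLC4 above GSCLC1 went from 5 to 2 (pseudocount 10) and 11 (mean of logs), below from 2 to 0 with each of these and without the highest cell. Imprinted genes found in at least 50% of cells went from 8 to 16 in GSC1, 7 to 14 in GSC2 and 8 to 14 in GSCLC1 when any read counted, and to 5 in GSC1 and 4 in GSC2 at 20 RPM. The GSC2 pair at rho 0.5 was lost (0 pairs) once detected genes per cell were taken into account. No paired analysis was possible because the lines share no replicate numbers. Whether depth limited the genes under 1 RPM was not tested.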
